A study of Mus musculus with 18 samples.

Results

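Cholesterol and fatty acid synthesis genes were followed in immortalised mouse embryonic fibroblasts, as RNA levels before and after tumour necrosis factor alpha (TNF). The set was 29 genes, found by symbol among the 55536 genes of the deposited count table, and all 29 passed the filter on low counts. The cells were IKK2 KO, without the kinase IKK beta that releases NF-κB (gene Ikbkb), p65 KO, without the main activating subunit of NF-κB (gene Rela), and wild type (WT). Each was given 10 ng/ml TNF for 45 or 90 min or left untreated, which made 9 groups of 2 libraries, called a and b. Every group was grown in DMEM with 10% FBS. The labels name immortalised cells of 1 kind per genotype, so an effect of the deletion and any other difference between the lines cannot be told apart. Nothing in the labels tells if paired libraries came from different cultures, so the p-values here reflect library-to-library spread that may be only technical.

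Cells build cholesterol from acetyl units through the mevalonate pathway, which also supplies isoprenoids, and then through squalene and a chain of sterol intermediates. SREBP transcription factors switch these genes and the fatty acid synthesis genes on when membrane sterol is low. SCAP escorts SREBP from the endoplasmic reticulum for cleavage, and INSIG proteins hold the complex back when sterol is plentiful. Insig1 is itself an SREBP target, which makes it a feedback brake. The members were 7 genes from acetyl units to farnesyl diphosphate, 11 genes from squalene synthesis to cholesterol, 5 genes of the SREBP system, the sterol carrier gene Stard4 and 5 fatty acid genes.

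Libraries held 16708346 to 23469439 counts. The deleted genes were checked before the comparisons. Rela stood at 5.68 ± 0.606 CPM (counts scaled to a common library size, with TMM factors) in untreated p65 KO and at 63.8 ± 0.879 CPM in untreated WT (SD, n = 2 each). Ikbkb stood at 43.4 ± 0.371 CPM in untreated IKK2 KO and at 59.9 ± 0.76 CPM in untreated WT, with 42.7 ± 0.0141 CPM in untreated p65 KO. Counts over the whole Ikbkb gene therefore did not check the IKK2 KO label. Fibroblast markers (9 genes, among them Col1a1 and Vim) summed to 11000 to 11430 CPM in IKK2 KO libraries, 4603 to 4748 CPM in p65 KO libraries and 11000 to 11380 CPM in WT libraries. Single markers differed within the near-equal sums of IKK2 KO and WT: untreated, Fn1 averaged 2768 CPM in IKK2 KO and 5082 CPM in WT, and Col3a1 677 CPM in IKK2 KO and 332 CPM in WT. Thy1 averaged 27.0 CPM in untreated IKK2 KO and was at 0 counts in untreated WT. In untreated p65 KO, Pdgfra was higher than in untreated WT, at 62.1 against 18.1 CPM, and Thy1 averaged 0.0208 CPM. The other fibroblast markers were lower in p65 KO than in WT, among them Fn1 (858 CPM) and Col3a1 (23.9 CPM). Adipocyte markers (7 genes) summed to 0.399 to 1.18 CPM in IKK2 KO, 0.831 to 1.49 CPM in p65 KO and 4.76 to 6.64 CPM in WT. Nearly all of the WT sum was Cebpa, which averaged 6.26 CPM in untreated WT, 0.604 in IKK2 KO and 0.457 in p65 KO. Fabp4 went the other way at low levels, with 0.0205 CPM in untreated WT, 0.124 in IKK2 KO and 0.394 in p65 KO. Adipoq, Plin1, Cidec and Lep were at 0 counts in every untreated library. In bulk RNA, fewer cells expressing a gene and less RNA per cell cannot be told apart. The part that these marker differences play in the results was not tested.

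Promoter windows from RefSeq on GRCm38.p6 (250 bases before to 50 after a start site) were matched to 23 of the 29 members. Those of Hmgcs1, Insig1, Lss and Cyp51 are shown because these genes carry the TNF responses and the differences between lines described below. Capitals mark matches to CACNCCAC (the core of a sterol element), CCAAT (the NF-Y box that sits beside sterol elements), GGGCGG (the GC box) or CACGTG (an E-box), on either strand. CACNCCAC and CCAAT do not overlap each other in these 4 windows.
Hmgcs1, chr13:119690101-119690400, plus strand: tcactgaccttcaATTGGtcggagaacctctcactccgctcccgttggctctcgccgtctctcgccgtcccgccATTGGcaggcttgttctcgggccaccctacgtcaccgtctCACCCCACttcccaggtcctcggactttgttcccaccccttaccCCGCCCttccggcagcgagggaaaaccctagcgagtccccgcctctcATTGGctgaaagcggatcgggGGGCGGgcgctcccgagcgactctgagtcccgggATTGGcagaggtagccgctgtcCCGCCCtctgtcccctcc
Insig1, chr5:28071162-28071461, plus strand: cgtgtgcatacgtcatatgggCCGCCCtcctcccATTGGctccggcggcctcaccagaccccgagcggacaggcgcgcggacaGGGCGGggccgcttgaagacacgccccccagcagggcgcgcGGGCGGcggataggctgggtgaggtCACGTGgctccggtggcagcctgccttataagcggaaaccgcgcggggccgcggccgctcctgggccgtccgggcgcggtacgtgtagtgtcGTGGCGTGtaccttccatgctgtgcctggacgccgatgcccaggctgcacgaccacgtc
Lss, chr10:76531355-76531654, plus strand: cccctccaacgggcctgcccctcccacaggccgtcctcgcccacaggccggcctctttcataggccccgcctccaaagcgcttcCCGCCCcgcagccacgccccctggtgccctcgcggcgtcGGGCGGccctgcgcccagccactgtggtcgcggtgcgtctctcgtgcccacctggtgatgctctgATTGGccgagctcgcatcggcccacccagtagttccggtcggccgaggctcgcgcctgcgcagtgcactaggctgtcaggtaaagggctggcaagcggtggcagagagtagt
Cyp51, chr5:4104648-4104947, minus strand: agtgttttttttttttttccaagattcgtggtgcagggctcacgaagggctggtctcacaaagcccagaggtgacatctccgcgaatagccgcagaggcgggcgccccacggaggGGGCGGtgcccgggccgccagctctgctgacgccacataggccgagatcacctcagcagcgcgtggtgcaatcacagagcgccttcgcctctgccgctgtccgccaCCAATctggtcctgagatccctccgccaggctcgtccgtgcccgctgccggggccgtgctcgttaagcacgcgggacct
The Hmgcs1 window held 4 CCAAT boxes, 3 GC boxes and 1 sterol element core, and the Insig1 window held 1 CCAAT box, 3 GC boxes, 1 sterol element core and 1 E-box. Among members with a window, CCAAT was found in 20 of 23 (87%), against 41.1% of 27025 genes with a window, and GGGCGG in 20 of 23 (87%), against 38.2% of those genes. CACNCCAC was found in 3 members (Acat2, Hmgcs1 and Insig1), or 13%, against 7.12% of genes. CACGTG was found in 5 members, or 21.7%, against 8.09%. The 27025 genes were not limited to those expressed in these cells, whereas all members were expressed. A gene with several windows counted if any of them matched. Whether the shares differ from those of other expressed genes was not tested. A pattern looser than the NF-κB consensus was also searched, and its counts are not given here. A match is a description of the letters in these windows and not a measured binding site.

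The untreated lines were compared to ask how far the pathway's resting level differed between them. Summed over the 29 genes, the level was 6334 ± 21.02 CPM in IKK2 KO, 4769 ± 43.1 CPM in p65 KO and 2918 ± 33.5 CPM in WT (SD, n = 2 each). This sum was highest in IKK2 KO, and no library of a line overlapped another line in it. Single members departed from that order, since the means of Srebf1, Ebp, Scap and Dhcr7 were highest in p65 KO and those of Tm7sf2 and Insig2 in WT. The means of Hsd17b7, Stard4, Msmo1, Fdft1 and Insig1 were highest in IKK2 KO but lower in p65 KO than in WT. The fatty acid desaturase gene Scd2 alone averaged 1552 CPM in IKK2 KO, 1383 CPM in p65 KO and 372.5 CPM in WT. Per kilobase of exon (RPKM), Scd2 was the most abundant member in untreated WT at 68.2, followed by Fasn at 48.8 and Hmgcs1 at 45.5, and Tm7sf2 was the least abundant at 1.05.

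In untreated IKK2 KO against untreated WT, 25 of the 29 members were higher and 3 were lower in edgeR's quasi-likelihood test (adjusted p under 0.05 over 16322 genes). Over all genes this comparison called 74.3%, with 35.9% higher and 38.4% lower, so a call by itself was common. The median log2 change was 0.94 over the members and -0.03 over all genes. The members lay above WT in both libraries in 25 cases, against 41.7% of all genes. All 7 mevalonate genes were higher, with a median of 1.17, as were 9 of the 11 sterol genes, with a median of 0.92.

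Scd2, which encodes the stearoyl-CoA desaturase that introduces a double bond into saturated fatty acids (ENSMUSG00000025203, GRCm38 chromosome 19, 44293674 to 44306864), stood at 1546 and 1558 CPM in untreated IKK2 KO, against 377 and 368 CPM in untreated WT. The groups did not overlap, and the log2 change was 2.06 ± 0.03 (SE, adjusted p = 3.9e-43 in edgeR's quasi-likelihood test). Fdps, which makes farnesyl diphosphate (ENSMUSG00000059743, chromosome 3, 89093588 to 89101959), had 43.2 and 42.5 CPM in IKK2 KO, against 12.6 and 12.4 CPM in WT, a log2 change of 1.77 ± 0.07. Its exons share 26.7% of their bases with Gm43738 on the same strand, a gene with a mean of 0.0556 counts per library. Acat2, which condenses acetyl units at the pathway's entry, had 89.4 and 90.8 CPM in IKK2 KO, against 32.8 and 29.5 CPM in WT (1.52 ± 0.05). These 3 genes were the highest changes of the set, and in each both IKK2 KO libraries lay above both WT libraries.

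Lss, the lanosterol synthase gene that closes the sterol rings (ENSMUSG00000033105, chromosome 10, 76531588 to 76557138), had 123 and 126 CPM in IKK2 KO, against 47.8 and 46.5 CPM in WT (1.40 ± 0.04). Nsdhl and Pmvk, a sterol dehydrogenase gene and the phosphomevalonate kinase gene, were each 1.32 higher on the log2 scale (SE 0.06 and 0.07). Sqle, whose product epoxidises squalene and is a slow step of the pathway, was 1.25 ± 0.03 higher. The carrier gene Stard4 was 1.24 ± 0.04 higher and Cyp51, which demethylates lanosterol, 1.22 ± 0.03 higher. Hmgcs1, whose product makes HMG-CoA (ENSMUSG00000093930, chromosome 13, 119690379 to 119708260), had 395 and 408 CPM in IKK2 KO, against 211 and 207 CPM in WT (0.94 ± 0.03). The remaining rises ran from 0.29 for Scap to 1.17 for Idi1.

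The SREBP system itself split in IKK2 KO. Srebf2, encoding the SREBP that mainly drives cholesterol genes (ENSMUSG00000022463, chromosome 15, 82147181 to 82205379), had 434 and 431 CPM in untreated IKK2 KO, against 223 and 221 CPM in untreated WT (0.96 ± 0.03, adjusted p = 3.9e-30 in edgeR's test). Insig1 (ENSMUSG00000045294, chromosome 5, 28071363 to 28078662) had 168 and 165 CPM in IKK2 KO, against 85.7 and 76.9 CPM in WT (1.03 ± 0.04). Both genes were higher in every IKK2 KO library than in any WT library. Srebf1, encoding the SREBP that leans to fatty acid genes, went the other way, with 43.9 and 43.4 CPM in IKK2 KO, against 49.8 and 52.6 CPM in WT (-0.23 ± 0.05, adjusted p = 8.8e-05). Insig2, the INSIG gene that is not a strong SREBP target, had 13.9 and 13.9 CPM in IKK2 KO, against 17.5 and 17.04 CPM in WT (-0.32 ± 0.08, adjusted p = 0.00088). Tm7sf2, a sterol reductase gene, was the remaining lower member (-0.52 ± 0.17, adjusted p = 0.0047, but 0.087 in DESeq2's Wald test), and Dhcr7 was not called (0.13).

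In untreated p65 KO against untreated WT, 18 members were higher, 6 were lower and 5 were not called. This comparison called 80.8% of all genes, 39.8% higher and 41.1% lower. The members' median was 0.33, against -0.02 over all genes. All 5 fatty acid genes were higher (median 0.61), while the sterol genes split into 6 higher and 4 lower (median 0.21). Both libraries of p65 KO lay above both of WT for 19 members, against 44.1% of genes, and below for 6, against 45.4%.

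Scd2 had 1391 and 1375 CPM in untreated p65 KO, against 377 and 368 CPM in untreated WT, a log2 change of 1.89 ± 0.03 (adjusted p = 5e-42 in edgeR's test). Its close relative Scd1 had 176 and 170 CPM in p65 KO, against 146 and 145 CPM in WT (0.25 ± 0.03). Both desaturase genes were higher without overlap, Scd2 by the larger amount. Acat2 had 76.5 and 76.1 CPM in p65 KO, against 32.8 and 29.5 CPM in WT (1.28 ± 0.05). Ebp, a sterol isomerase gene, was 0.82 ± 0.08 higher and Sqle 0.80 ± 0.03 higher.

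The largest fall was that of Tm7sf2, with 0.831 and 0.867 CPM in p65 KO (19 and 20 counts), against 4.6 and 4.62 CPM in WT (-2.43 ± 0.21, adjusted p = 5.1e-14). Its exons share 12.1% of their bases with Vps51 on the same strand, so reads there could be assigned to either gene. Hsd17b7, which reduces a sterol ketone (ENSMUSG00000026675, chromosome 1, 169949535 to 169969241), had 21.6 and 21.9 CPM in p65 KO, against 37.4 and 36.0 CPM in WT (-0.76 ± 0.06). Stard4 had 55.2 and 54.0 CPM in p65 KO, against 73.7 and 71.1 CPM in WT (-0.41 ± 0.04). Those 3 genes were lower in both p65 KO libraries than in either WT library. Msmo1 (-0.19), Fdft1 (-0.15) and Insig2 (-0.24) were also lower, by smaller amounts. The call of Fdft1 was lost without untreated WT library a or untreated p65 KO library a (adjusted p up to 0.12), and that of Insig2 in DESeq2's Wald test (adjusted p = 0.058). Dhcr7, higher by 0.21, lost its call in DESeq2's test and without untreated WT library a (adjusted p up to 0.15).

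Srebf1 and Srebf2 both rose in p65 KO. Srebf1 had 81.9 and 82.0 CPM in untreated p65 KO, against 49.8 and 52.6 CPM in untreated WT (0.68 ± 0.04), and Srebf2 had 354 and 362 CPM in p65 KO, against 223 and 221 CPM in WT (0.69 ± 0.03). Insig1 had 74.9 and 79.4 CPM in p65 KO, against 85.7 and 76.9 CPM in WT, so the groups overlapped and the change of -0.08 was not called (adjusted p = 0.074 in edgeR's test). It was called lower under RLE scaling (adjusted p = 0.022), in the 4 untreated libraries alone, and without WT library b or p65 KO library b. Hmgcs1 had 220 and 208 CPM in p65 KO, against 211 and 207 CPM in WT, and was not called (0.03). Lss, Mvk and Mvd, at 0.07, 0.05 and 0.07, were the other members with no call.

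Untreated IKK2 KO stood above untreated p65 KO for 24 members and below it for 2, in a comparison that called 72.4% of all genes (35.5% higher and 36.9% lower). The median was 0.60 over members and 0.00 over all genes. Scaling by total counts alone put the median of all genes at -0.20 in this comparison and at -0.21 in IKK2 KO against WT, and gave 19 higher and 6 lower members here. The RNA Gm26917 took 14.1 to 14.9% of counts in untreated IKK2 KO and 10.3 to 11% in untreated WT. In untreated p65 KO the most abundant gene was instead mt-Rnr2, with 5.47 to 5.63% of counts. Tm7sf2 differed most, with 3.1 and 3.31 CPM in IKK2 KO, against 0.831 and 0.867 CPM in p65 KO (1.91 ± 0.24). Stard4 had 173 and 168 CPM in IKK2 KO, against 55.2 and 54.0 CPM in p65 KO (1.65 ± 0.04), followed by Hsd17b7 (1.49 ± 0.06) and Lss (1.33 ± 0.04). Srebf1 was lower in IKK2 KO, at 43.9 and 43.4 CPM, against 81.9 and 82.0 CPM in p65 KO (-0.91 ± 0.05), and so was Ebp (-0.45 ± 0.09). The small differences of Scd2 (0.17 ± 0.03) and Acly (0.11 ± 0.03) changed sign under total-count scaling, at -0.04 and -0.10.

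**Figure D1:**
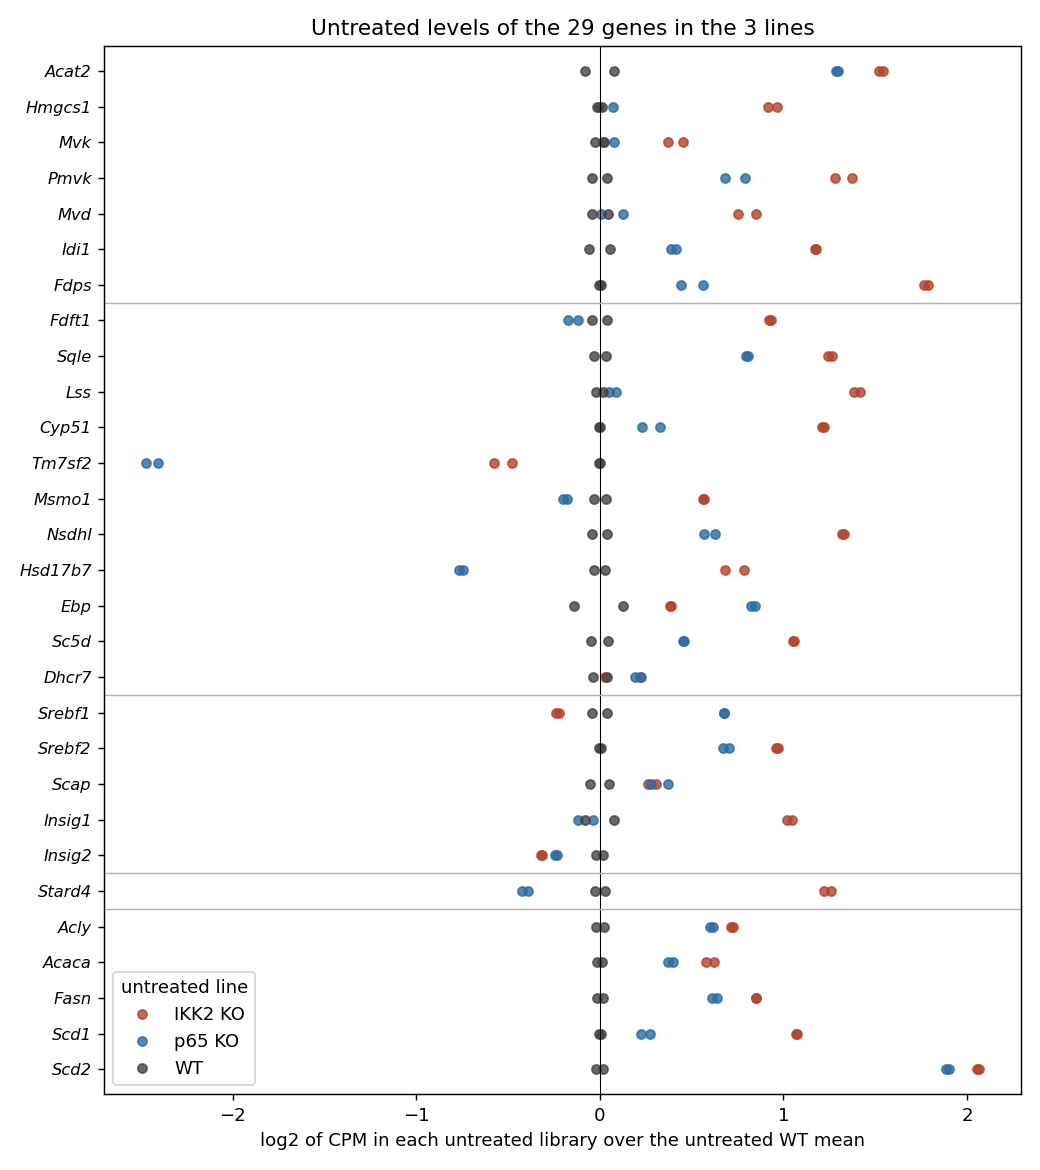
Each point is 1 untreated library, placed on the x axis by the log2 of its CPM over the mean of untreated WT, for the 29 genes on the y axis in order of their role (grey lines divide the roles). IKK2 KO points lie right of all WT points for 25 genes, Scd2 and Acat2 are far right in both knock-outs, and Tm7sf2, Hsd17b7 and Stard4 are left of WT in p65 KO.

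The response of the same genes to TNF was then read within each line. In WT at 45 min, 10 of the 29 members rose and 0 fell, in a comparison that called 12.2% of all genes (5.73% higher and 6.45% lower). The changes were small, from 0.15 to 0.37 on the log2 scale among those called, and the members' median was 0.10, against 0.01 over all genes. Both TNF libraries lay above both untreated libraries for 20 members, against 24.3% of all genes, and below for 0, against 23.4%. Mevalonate genes gave 3 of the rises, sterol genes 4, and the SREBP system, the carrier Stard4 and the fatty acid genes 1 each.

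Hmgcs1 had 283 and 260 CPM in WT at 45 min, against 211 and 207 CPM in untreated WT, a log2 change of 0.37 ± 0.03 (adjusted p = 2e-12 in edgeR's quasi-likelihood test). Insig1 had 108 and 102 CPM at 45 min, against 85.7 and 76.9 CPM untreated (0.36 ± 0.04, adjusted p = 5.4e-09). Fdps had 16.2 and 15.6 CPM at 45 min, against 12.6 and 12.4 CPM untreated (0.34 ± 0.08, adjusted p = 0.0018). In all 3 genes every TNF library was above every untreated library. Lss had 58.0 and 58.5 CPM at 45 min, against 47.8 and 46.5 CPM untreated (0.31 ± 0.05, adjusted p = 2.6e-06), and Stard4 had 89.4 and 83.8 CPM, against 73.7 and 71.1 CPM (0.26 ± 0.04). Idi1 (0.19), Scd2 (0.18), Cyp51 (0.16), Msmo1 (0.16) and Sc5d (0.15) made up the rest. The calls of Idi1 and Sc5d were lost without untreated WT library b or 45 min WT library a (adjusted p up to 0.080 and 0.29), and that of Sc5d also in DESeq2's Wald test.

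In WT at 90 min, 11 members rose and 0 fell, in a comparison that called 9.32% of all genes (5.81% higher and 3.51% lower). The median was 0.10 over members and 0.00 over all genes. This comparison shares its untreated libraries with that at 45 min. The count was 5 without untreated WT library b, 7 without 90 min WT library a and 6 in DESeq2's Wald test. Hmgcs1 stood at 274.7 and 275.5 CPM at 90 min, against 211 and 207 CPM untreated (0.40 ± 0.03, adjusted p = 3.8e-13). Fdps (0.29 ± 0.08) was called at both times too, but its call at 90 min was lost without either untreated WT library (adjusted p = 0.080 each), without 90 min WT library a (0.27) and in DESeq2's Wald test (0.17). Hsd17b7 had 45.5 and 43.0 CPM at 90 min, against 37.4 and 36.0 CPM untreated (0.27 ± 0.06, adjusted p = 0.00082). Cyp51 had 137 and 144 CPM, against 120 and 119 CPM (0.23 ± 0.04), and Sqle 130 and 129 CPM, against 117 and 112 CPM (0.18 ± 0.03). Srebf2 rose slightly, to 251 and 246 CPM at 90 min, against 223 and 221 CPM untreated (0.16 ± 0.03, adjusted p = 7.1e-05). None of the 5 fatty acid genes was called at 90 min in edgeR's test, with changes from -0.04 to 0.07.

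Some WT members were higher at 45 min than at 90 min. Between 90 and 45 min in WT, 1 member rose and 4 fell, in a comparison that called 14.3% of all genes (8.08% higher and 6.22% lower). Lss stood at 46.4 and 47.0 CPM at 90 min, against 58.0 and 58.5 CPM at 45 min (-0.32 ± 0.05, adjusted p = 1.8e-06 in edgeR's test), and its 90 min value was not called against untreated WT (-0.01). Scd2 had 360 and 375 CPM at 90 min, against 434 and 408 CPM at 45 min (-0.19 ± 0.03, adjusted p = 7.4e-07), again with no call against untreated WT. Insig1 (-0.19 ± 0.04) and Stard4 (-0.13 ± 0.04) also fell between the times, while Hsd17b7 rose (0.24 ± 0.06). Without 90 min WT library a the calls of Insig1, Stard4 and Hsd17b7 were lost, leaving 2 members.

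**Figure D2:**
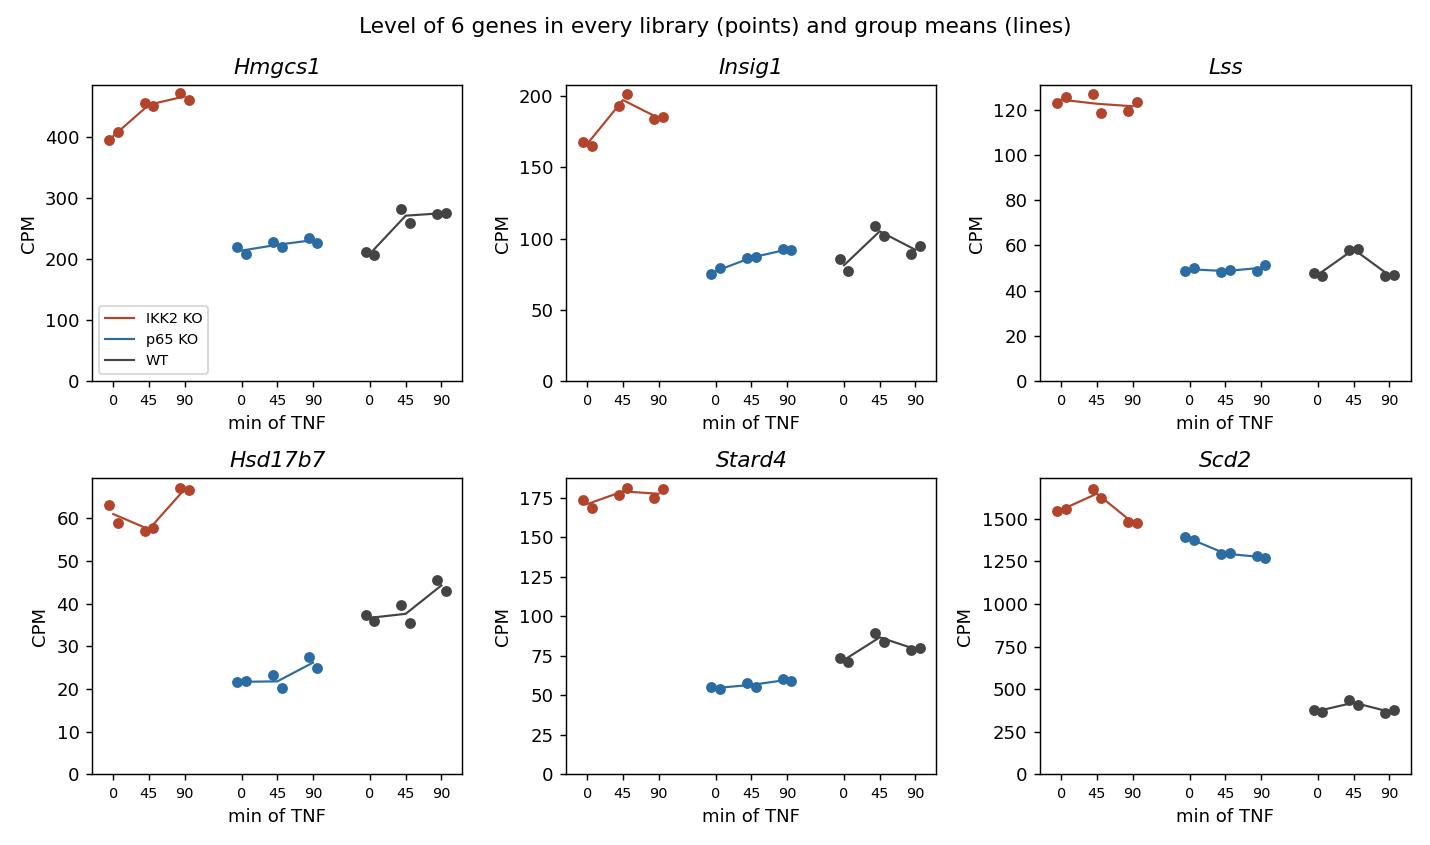
CPM on the y axis, from 0, is plotted for 6 genes against minutes of TNF within each line, with each point 1 library and lines joining the group means. Hmgcs1 is raised at both times in WT, Lss and Scd2 peak at 45 min in WT, and the IKK2 KO level of 5 of the 6 genes lies far above WT and p65 KO, with Scd2 high in both knock-outs.

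In IKK2 KO at 45 min, 4 members rose and 0 fell, where 8.76% of all genes were called (3.33% higher and 5.43% lower). Insig1 had 193 and 201 CPM at 45 min, against 168 and 165 CPM in untreated IKK2 KO (0.24 ± 0.04, adjusted p = 2.3e-06 in edgeR's test). Hmgcs1 had 455 and 451 CPM, against 395 and 408 CPM (0.17 ± 0.03, adjusted p = 4.9e-05). Both genes lay higher in each TNF library than in either untreated library, as did 21.9% of all genes. Fdft1, the squalene synthase gene, had 98.1 and 98.1 CPM, against 88.6 and 88.1 CPM (0.15 ± 0.04), and Scd2 had 1672 and 1622 CPM, against 1546 and 1558 CPM (0.09 ± 0.03). The calls of Fdft1 and Scd2 were lost without untreated IKK2 KO library b, leaving 2. That of Fdft1 was also lost in DESeq2's Wald test, and that of Scd2 in the compared libraries alone and without untreated library a or 45 min library a. Fdft1 exons share 18.3% of their bases with Ctsb on the opposite strand, and the strand setting of the counting is not given in the sources used here.

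At 90 min in IKK2 KO, 3 members rose and 0 fell, where 4.48% of genes were called (3.36% higher and 1.12% lower). They were Hmgcs1, with 472 and 461 CPM at 90 min, against 395 and 408 CPM untreated (0.22 ± 0.03, adjusted p = 1.4e-06), Insig1 (0.15 ± 0.04, adjusted p = 0.0069) and the fatty acid synthase gene Fasn (0.10 ± 0.03, adjusted p = 0.01). Without untreated IKK2 KO library b, or without 90 min library b, the calls of Insig1 and Fasn were lost, leaving Hmgcs1. Under total-count scaling 2 members rose and 1 fell.

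Between 90 and 45 min in IKK2 KO, 5 members rose and 2 fell, where 15.7% of genes were called (10.1% higher and 5.59% lower). Fasn had 1014 and 1056 CPM at 90 min, against 939 and 914 CPM at 45 min (0.16 ± 0.03, adjusted p = 9.4e-06), and Hsd17b7 had 67.1 and 66.6 CPM, against 57.0 and 57.9 CPM (0.22 ± 0.05, adjusted p = 0.0015). Fdft1 (-0.18 ± 0.04) and Scd2 (-0.16 ± 0.03) fell. Sqle (0.12), Srebf2 (0.10) and Acaca (0.10) were the other rises. Total-count scaling gave 3 rises and 3 falls in this comparison. DESeq2's Wald test gave 4 calls, without those of Hsd17b7 (adjusted p = 0.073), Srebf2 and Acaca. The calls of Srebf2 and Acaca were also lost under total-count scaling and in the compared libraries alone.

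In p65 KO at 45 min, 1 member rose and 1 fell, where 1.66% of genes were called (1.17% higher and 0.49% lower). Insig1 had 86.5 and 86.8 CPM at 45 min, against 74.9 and 79.4 CPM in untreated p65 KO (0.17 ± 0.04, adjusted p = 0.023 in edgeR's test). Scd2 had 1293 and 1297 CPM, against 1391 and 1375 CPM (-0.09 ± 0.03, adjusted p = 0.037). The groups did not overlap in either gene. Over all genes, both TNF libraries lay above both untreated libraries in 20.7% and below in 23.2%. The members' median was -0.01. The count was 0 without untreated p65 KO library a or without either 45 min p65 KO library, and 1 without untreated p65 KO library b. DESeq2's Wald test gave 1 call, of Scd2, and total-count scaling gave 1, of Insig1.

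At 90 min in p65 KO, 3 members rose and 2 fell, where 6.48% of genes were called (4.06% higher and 2.42% lower). Insig1 had 92.9 and 91.7 CPM at 90 min, against 74.9 and 79.4 CPM untreated (0.26 ± 0.04, adjusted p = 1.8e-05), the member whose call was kept in every alternative. Hsd17b7 had 27.5 and 24.9 CPM, against 21.6 and 21.9 CPM (0.27 ± 0.07, adjusted p = 0.0084), and Hmgcs1 had 235 and 227 CPM, against 220 and 208 CPM (0.11 ± 0.03, adjusted p = 0.028). Scd1 (-0.14 ± 0.03) and Scd2 (-0.12 ± 0.03) fell. Leaving out untreated library a gave 3 calls, all rises, and leaving out untreated library b or 90 min library a gave 3, of which 2 were falls. Without 90 min library b there were 4 rises and 0 falls, the calls of Scd1 and Scd2 being lost. Total-count scaling gave 9 rises and 1 fall, and a fit of the 4 compared libraries alone 7 rises and 2 falls. Calls over all genes also grew in these settings, to 1646 and 1502 genes, against 1058 in the main fit. Between 90 and 45 min, Hsd17b7 alone was called (0.25 ± 0.07, adjusted p = 0.026), where 2.73% of genes were called (2.27% higher and 0.453% lower). That call was lost in DESeq2's Wald test, in the compared libraries alone and without 45 min library b or 90 min library a.

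Insig1 was called higher in edgeR's test at both times in all 3 lines, and Hmgcs1 in 5 of these 6 comparisons, the exception being p65 KO at 45 min (0.06). The Insig1 call was lost in some alternatives in 3 of its 6 comparisons. In IKK2 KO at 90 min these were DESeq2's Wald test and leaving out library b of either group (adjusted p up to 0.10). In p65 KO at 45 min they were DESeq2's test and leaving out untreated library a or either 45 min library (up to 0.48), and in WT at 90 min leaving out library b of either group (up to 0.24). The Hmgcs1 call in p65 KO at 90 min was lost in DESeq2's test and without untreated library b or 90 min library a (up to 0.38). Within each line both times share the same untreated libraries.

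**Figure D3:**
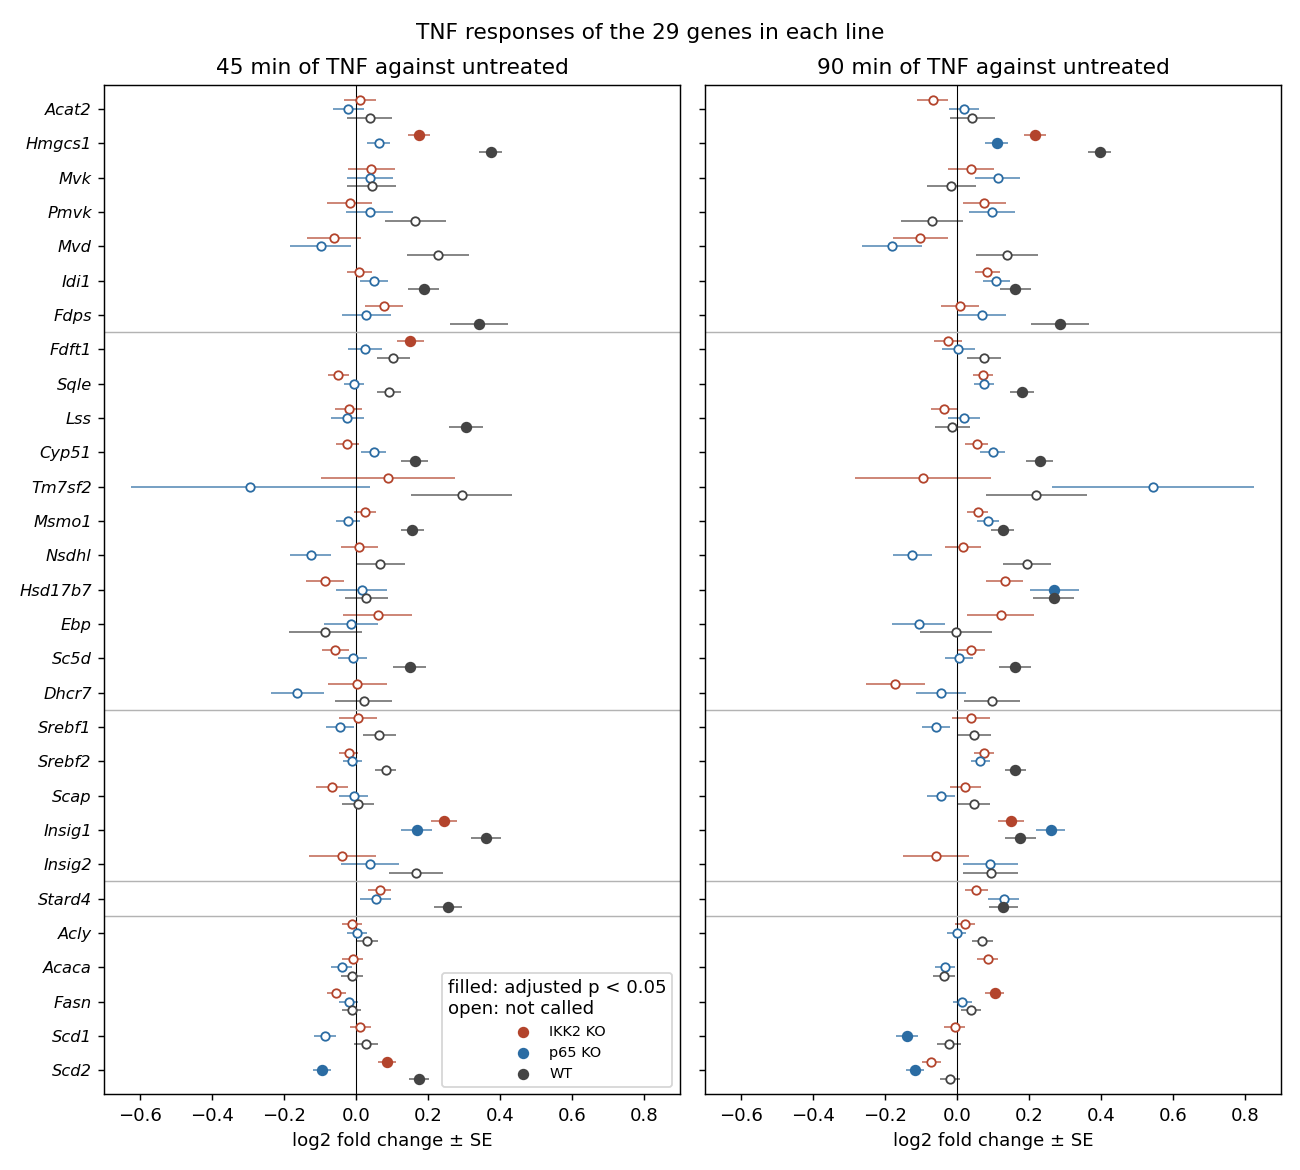
The x axis gives the log2 fold change with TNF against untreated cells of the same line (bars, SE) for the 29 genes, at 45 min on the left and 90 min on the right, with filled points past an adjusted p of 0.05. WT points lie right of 0 for 26 genes at 45 min and Insig1 is filled in all lines at both times.

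The differences between the lines' responses were tested directly, as knock-out log2 response minus WT log2 response. For p65 KO at 45 min, 6 members were called and all had smaller responses than in WT, where 7.08% of genes were called (3.47% higher and 3.61% lower). Hmgcs1 differed by -0.31 ± 0.05 (adjusted p = 2.6e-06 in edgeR's test), with a response of 0.06 in p65 KO, against 0.37 in WT. Lss differed by -0.33 ± 0.07 (adjusted p = 0.00043), with -0.02 in p65 KO, against 0.31 in WT. Scd2 differed by -0.27 ± 0.04 (adjusted p = 7.5e-07), with -0.09 in p65 KO, against 0.18 in WT. These 3 calls were kept in every alternative. Those of Stard4 (-0.20), Insig1 (-0.19) and Msmo1 (-0.18) were lost in DESeq2's Wald test and without untreated WT library b or 45 min p65 KO library b, leaving 3. The members' median difference was -0.13, against -0.01 over all genes.

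For p65 KO at 90 min, 2 members were called, both lower, where 5.39% of genes were called (1.92% higher and 3.47% lower). Hmgcs1 differed by -0.29 ± 0.05 (adjusted p = 1.7e-05), with 0.11 in p65 KO, against 0.40 in WT. Nsdhl differed by -0.32 ± 0.09 (adjusted p = 0.018), with -0.12 in p65 KO and 0.19 in WT, neither called by itself. The Nsdhl call was lost without untreated WT library b, 90 min WT library b or untreated p65 KO library b, leaving 1, and also without 90 min p65 KO library b, where Mvd was called in its place.

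For IKK2 KO at 45 min, 5 members were called, all lower, where 4.86% of genes were called (2.05% higher and 2.82% lower). Lss differed by -0.33 ± 0.06 (adjusted p = 0.00015), with -0.02 in IKK2 KO, against 0.31 in WT, and this call was kept in every alternative. Hmgcs1 differed by -0.20 ± 0.04 (adjusted p = 0.0024), with 0.17 in IKK2 KO, against 0.37 in WT. Sc5d (-0.21), Stard4 (-0.19) and Cyp51 (-0.19) were also called, but their calls were lost in DESeq2's Wald test. The count was 1 without 45 min WT library a, 8 without 45 min WT library b, 3 without untreated WT library b or untreated IKK2 KO library a, and 2 without 45 min IKK2 KO library a or in DESeq2's Wald test.

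For IKK2 KO at 90 min, Hmgcs1 (-0.18 ± 0.04, adjusted p = 0.014) and Cyp51 (-0.17 ± 0.05, adjusted p = 0.04) were called, where 2.35% of genes were called (0.833% higher and 1.52% lower). The count was 0 in DESeq2's Wald test and without untreated WT library b, 90 min WT library b or untreated IKK2 KO library b. It was 1 with any of the other 5 libraries left out. All are differences on the log2 scale, and untreated levels differed between lines. At 90 min mean Hmgcs1 rose from 401.6 to 466.5 CPM in IKK2 KO and from 209 to 275.1 CPM in WT. These rises were similar in CPM. The differences at a given time share the same WT libraries, and all 4 share the untreated WT libraries. They are therefore not independent of each other.

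**Figure D4:**
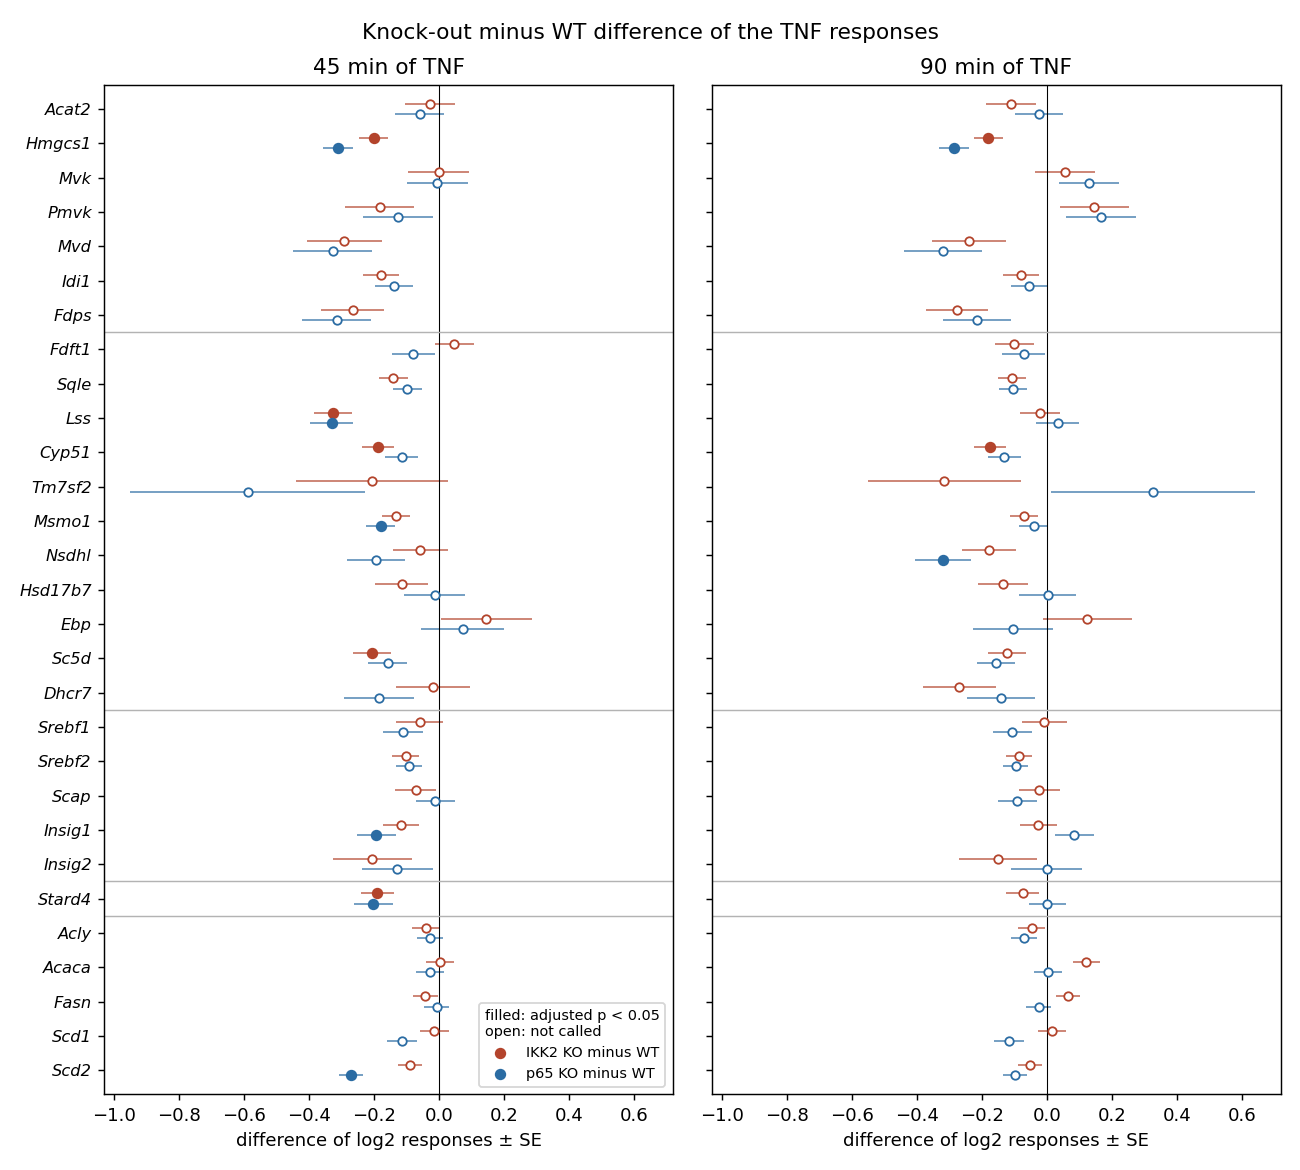
The x axis gives the TNF response of a knock-out line minus that of WT, in log2 units with SE, for the 29 genes at 45 min (left) and 90 min (right), with filled points past an adjusted p of 0.05. The filled points all lie left of 0, with Hmgcs1 filled in all 4 differences and Lss in both at 45 min.

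Related genes outside the set were read from 5 lists, in WT comparisons that called 12.2% of all genes at 45 min and 9.32% at 90 min, so the small counts below are not a result about the lists. Of 17 further fatty acid and lipid synthesis genes, 2 rose and 1 fell in WT at 45 min and 2 rose at 90 min. Lpin1, which encodes a phosphatidate phosphatase of glycerolipid synthesis, had 29.4 and 28.8 CPM in WT at 45 min, against 12.5 and 10.6 CPM untreated (1.32 ± 0.08, adjusted p = 2.4e-18), a larger change than that of any member. Its response was smaller in both knock-outs at 45 min, with differences of -1.20 ± 0.11 in p65 KO and -0.69 ± 0.10 in IKK2 KO. Of 10 sterol uptake, storage and transport genes, 2 rose and 1 fell in WT at 45 min. Soat1, which esterifies cholesterol for storage, fell to 152 and 153 CPM in WT at 45 min, against 204 and 201 CPM untreated (-0.41 ± 0.03, adjusted p = 7e-15), and was back at 214 and 210 CPM at 90 min. Vldlr, a lipoprotein receptor gene, and Cav1 rose by 0.20 ± 0.04 and 0.14 ± 0.03.

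Of 8 tested LXR target and oxysterol genes (sterol-excess responses), Abca1 rose and Mylip fell in WT at 45 min. The cholesterol efflux gene Abca1 had 76.8 and 79.3 CPM at 45 min and 52.0 and 53.8 CPM at 90 min, against 65.9 and 66.3 CPM untreated, so it was higher at 45 min (0.24 ± 0.04) and lower at 90 min (-0.32 ± 0.04). Mylip, whose product degrades lipoprotein receptors, fell at 90 min in every line, by -0.65 ± 0.09 in IKK2 KO, -0.71 ± 0.11 in p65 KO and -0.49 ± 0.08 in WT. None of 8 isoprenoid branch genes and none of 8 SREBP processing and degradation genes was called in WT at either time in edgeR's test.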

How the data were processed

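The deposited file holds expected counts per gene for 18 libraries, with 31.8% of non-zero values fractional (more than 0.005 from a whole number). How the fractions arose was not given in the sources used here. Scd1 and Scd2 held fractional values in all 18 libraries. The submitters' processing notes list HISAT2, Trimmomatic, Subread 1.6.2 with featureCounts, FastQC 0.11.8, edgeR 3.26.4 and the build GRCm38, and the labels give paired reads of 76 bases from a directional kit. The strand setting of the counting, and the release of its annotation, were not given in the sources used here. Columns name the group but no replicate number. Counts were rounded. Genes were kept with filterByExpr (16322 genes, 0.0601% of counts lost), scaled by TMM and tested by quasi-likelihood (edgeR 4.0.16, robust; R 4.3.3) in a model of all 9 groups, with Benjamini-Hochberg adjustment over all genes within each of 16 contrasts at 0.05. Standard errors come from the log2 change and the F statistic. The pipeline was tested on simulated data. Of 1.2-fold changes built into these data, 52% were called in WT at 45 min and 32% in the p65 KO difference at 45 min. Changes of that size can therefore be missed. GENCODE M21 gave positions and exon lengths for RPKM. Alternatives were DESeq2 1.42.0, RLE scaling, no low-count filter, the compared libraries alone, each library left out and, added after seeing the data, total-count scaling. Members, lists, named genes and promoter motifs were chosen with earlier results of these data known. Per-library values are given for Srebf1, Srebf2, Insig1, Insig2, Hmgcs1 and Scd1 and for the largest called changes of a contrast, with some further members given as well, and related genes are among the 4 largest called changes of their list. Replicate pairs differed by more than counting error (chi-square per degree of freedom 1.13 to 4.27).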

Additional observations from a re-analysis of the deposited data

Results flagged for a closer look

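The TNF response of 15 member and contrast pairs differed between a knock-out and WT in edgeR's test of the difference itself (adjusted p under 0.05). Differences are knock-out response minus WT response in log2 units. In IKK2 KO at 45 min they were -0.20 for Hmgcs1, -0.33 for Lss, -0.19 for Cyp51, -0.21 for Sc5d and -0.19 for Stard4. In IKK2 KO at 90 min they were -0.18 for Hmgcs1 and -0.17 for Cyp51. In p65 KO at 45 min they were -0.31 for Hmgcs1, -0.33 for Lss, -0.18 for Msmo1, -0.19 for Insig1, -0.20 for Stard4 and -0.27 for Scd2. In p65 KO at 90 min they were -0.29 for Hmgcs1 and -0.32 for Nsdhl. Not all of these calls were stable. Those kept in every alternative were 1 of 5 at 45 min and 0 of 2 at 90 min in IKK2 KO. In p65 KO they were 3 of 6 at 45 min and 1 of 2 at 90 min. Groups of 2 libraries are too small to look for single libraries that stand apart.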

How the results depend on the processing

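No paired analysis was possible because the deposited columns name the group and a library code found in no label, so replicate numbers could not be matched. Of 160 alternative counts of called members, 109 were within 1.5 times the reported count, and RLE scaling and dropping the low-count filter were among the alternatives. The 51 counts outside that range all belonged to TNF comparisons or differences of responses. No count of an untreated comparison was among them, where nearly all members were called. Of 141 member calls, 43 were lost in at least 1 alternative, and the other 98 include 2 whose sign turned. Untreated comparisons kept 26 of 28 calls (IKK2 KO against WT) and 21 of 24 (p65 KO against WT). With TNF, WT kept 8 of 10 calls at 45 min and 5 of 11 at 90 min. IKK2 KO kept 2 of 4 and 1 of 3 at these times, and p65 KO 0 of 2 and 1 of 5. Between the times WT kept 2 of 5, IKK2 KO 4 of 7 and p65 KO 0 of 1. The sign turned for Acly (-0.10) and Scd2 (-0.040) between untreated IKK2 KO and p65 KO under total-count scaling. In DESeq2's Wald test the counts were 4 (reported 7) for IKK2 KO between 90 and 45 min, 1 (2) for p65 KO at 45 min, 3 (5) at 90 min and 0 (1) between these, and 6 (11) for WT at 90 min and 3 (5) between the times. For differences from WT it gave 2 (5) and 0 (2) for IKK2 KO at 45 and 90 min, and 3 (6) and 1 (2) for p65 KO. DESeq2's test also called fewer of all genes in these comparisons, for example 721 against 1521 for WT at 90 min. Total-count scaling gave 1 for p65 KO at 45 min, 10 at 90 min and 2 between these, and 1 for each difference at 90 min. The compared libraries alone gave 9 for p65 KO at 90 min, 0 between its times and 3 for the IKK2 KO difference at 45 min. Leaving out 1 library at a time gave 2 to 4 for IKK2 KO at 45 min, 1 to 3 at 90 min and 5 to 7 between these. It gave 0 to 1, 3 to 4 and 0 to 1 for p65 KO, and 8 to 12, 5 to 9 and 2 to 4 for WT. Differences at 45 and 90 min gave 1 to 8 and 0 to 1 for IKK2 KO, and 3 to 6 and 1 to 2 for p65 KO. Untreated counts were 28 to 29 for IKK2 KO against WT, 22 to 25 for p65 KO against WT and 26 for IKK2 KO against p65 KO. Libraries that moved a count by over 1.5 times are named beside that count, and the cause was not tested. Each group holds 2 libraries, and the spread is estimated over all 9 groups together.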

Other observations

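The genes around the pathway also differed between the untreated lines, where most genes did (72.4 to 80.8% called). Of 17 further fatty acid and lipid synthesis genes, 13 were higher and 2 lower in IKK2 KO than in WT (median 0.55), and 14 were higher and 3 lower in p65 KO than in WT (median 0.58). In IKK2 KO the elongase gene Elovl6 had 197 and 204 CPM, against 66.9 and 65.4 CPM in WT (1.6 ± 0.04), and the desaturase gene Fads1 had 219 and 219 CPM, against 89.9 and 84.8 CPM in WT (1.32 ± 0.03). Lbr, whose product has the same sterol reductase activity as that of Tm7sf2, had 207 and 217 CPM in IKK2 KO and 114 and 118 CPM in p65 KO, against 120 and 122 CPM in WT. Its level was 0.81 ± 0.03 above WT in IKK2 KO.

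Of 10 sterol uptake, storage and transport genes, 3 were higher and 6 lower in IKK2 KO than in WT, and 3 were higher and 5 lower in p65 KO than in WT. Vldlr had 11.1 and 8.95 CPM in IKK2 KO and 14.8 and 15.3 CPM in p65 KO, against 76.2 and 71.5 CPM in WT (-2.89 ± 0.07 and -2.30 ± 0.06). Of 8 tested LXR target and oxysterol genes, 3 were higher and 4 lower than in WT in each knock-out. The median was -0.44 in IKK2 KO and 0.48 in p65 KO. Abca1 was a lower gene of this list, though not its largest change. It had 12.5 and 11.5 CPM in IKK2 KO (-2.47 ± 0.06) and 9.26 and 9.36 CPM in p65 KO (-2.83 ± 0.06). Untreated WT had 65.9 and 66.3 CPM. Of 8 SREBP processing and degradation genes, 5 were higher and 3 lower in IKK2 KO than in WT (median 0.23), and 6 were higher and 2 lower in p65 KO than in WT (median 0.42). The site-1 protease gene Mbtps1 was one of the 2 lower in p65 KO (-1.22 ± 0.03).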
